A study of Mus musculus with 6 samples.

Results

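Ependymal and motile cilia genes were followed in the thoracic spinal cord of newborn mice lacking Myt1. The set held 34 gene symbols: Foxj1, 3 Rfx factors, 2 regulators of multiciliation and 28 genes of the moving axoneme and its associated proteins. A gene was counted where its symbol in the deposited table equalled a listed one, which gave 32 rows among 55487 genes. Of these 32, 24 averaged 1 TPM or more over the 6 samples and 8 averaged less. TPM, a unit of transcript abundance, corrects for the length of a transcript and for the sum over a library, so levels can be compared between genes. The samples were 3 Myt1-/- and 3 WT cords at postnatal day 0, measured by RNA sequencing of total RNA with no other allele or treatment named. The study's design text asks which genes depend on Myt1, a neural zinc finger transcription factor, as oligodendrocytes differentiate. The labels call the animals embryos at P0 without stating if each sample was 1 animal or a pool, nor which part of Myt1 was deleted. P-values therefore measure only the spread between these samples.

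Ependymal cells line the ventricles and the central canal and, once mature, move cerebrospinal fluid with beating cilia. They arise from radial glia late in development and after birth. A motile cilium differs from the primary cilium that most cells carry by having dynein motors, radial spokes and a central pair of microtubules. Foxj1, a forkhead factor, switches on genes of the motile axoneme. RFX factors act beside it by binding X-box sequences in the promoters of ciliary genes, and Mcidas and Ccno drive the production of the many basal bodies that a multiciliated cell needs.

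In each of the 6 samples 22368 to 23000 genes were above 0 TPM. TPM carry no read number, so depth is unknown and counting error cannot be given. WT replicate 1 stood apart, with 11.3% of its TPM in mitochondrially encoded genes, against 8.64% to 9.04% in the other 5 samples. Myt1 was at 6.14, 5.36 and 5.28 TPM in the Myt1-/- cords, against 11.54, 11.53 and 13.61 TPM in the WT cords, so the groups did not overlap. Its mean was 2.19-fold lower (limma adjusted p = 0.14). Reads from exons outside the deleted part count towards such a value.

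Many promoters of the set held a short sequence, shown here because RFX factors bind it. Whether a promoter holds it does not rest on the measured levels. The printed promoters do include those of Drc1 and Tekt4, the genes of the set below an unadjusted limma p of 0.05. The search used the letters GTTGCC, an X-box half-site, on both strands of RefSeq promoters (GRCm38.p6, 250 bases before to 50 bases after a start site). RefSeq promoters were found for 29 of the 32 genes; Foxj1, Rsph1 and Rsph4a were not among them. Of the 29, 15 (51.7%) held GTTGCC, against 14.1% of 27025 genes with a promoter. The 15 were Rfx2, Rfx3, Mcidas, Ccno, Dnah7a, Spag6l, Spag16, Spef2, Hydin, Drc1, Cfap44, Tekt1, Tekt4, Ccdc153 and Pifo. Stretches of 60 bases around the match are printed for 7 of them on the strand of the gene, 5′ to 3′, with the match in capitals. GGCAAC is the same half-site read on the other strand.
Rfx2: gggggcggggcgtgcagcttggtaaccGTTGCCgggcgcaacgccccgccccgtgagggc
Spag16: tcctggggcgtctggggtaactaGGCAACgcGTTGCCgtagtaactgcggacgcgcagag
Ccdc153: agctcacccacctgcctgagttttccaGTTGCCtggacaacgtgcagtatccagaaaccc
Tekt1: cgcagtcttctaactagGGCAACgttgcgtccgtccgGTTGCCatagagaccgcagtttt
Cfap44: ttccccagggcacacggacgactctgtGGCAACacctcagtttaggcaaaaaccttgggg
Pifo: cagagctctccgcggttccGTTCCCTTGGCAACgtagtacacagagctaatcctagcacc
Tekt4: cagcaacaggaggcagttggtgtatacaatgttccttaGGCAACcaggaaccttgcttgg

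These stretches lie at chr17:56831092-56831151 (Rfx2, minus strand), chr1:69826836-69826895 (Spag16, plus strand) and chr9:44240498-44240557 (Ccdc153, plus strand). That of Tekt1 lies at chr11:72361875-72361934 (minus strand), that of Cfap44 at chr16:44394643-44394702 (plus strand), that of Pifo at chr3:106001477-106001536 (minus strand) and that of Tekt4 at chr17:25471560-25471619 (plus strand). The stretches of Tekt1, Pifo and Tekt4 lie inside the spans that GENCODE M21 gives these genes. Pifo spans 105996957 to 106014646 and Tekt4 25454615 to 25476602. The match in Tekt4 begins at base 9, after the RefSeq start. The capitals in Pifo mark a whole pair of half-sites, matched on either strand as GTTGCC, any 2 bases, GG, any base and AAC, a motif that contains the shorter one. It was held by 1 of the 29 genes (3.45%), against 0.355% of all genes with a promoter. Tekt1 and Spag16 each show 2 matches, 1 on either strand.

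The half-site was also frequent in ciliary genes outside the set. It was in 42 of 96 wider motile cilia genes with a promoter (43.8%) and in 22 of 46 genes of the primary cilium and intraflagellar transport (47.8%). The whole pair of half-sites was in 2 of the 96 (2.08%) and 4 of the 46 (8.7%). The forkhead core GTAAACA was in 2 of the 29 genes, Ak7 and Cfap43 (6.9%, against 4.05% of all genes). It was in 11 of 96 wider motile cilia genes (11.5%) and 0 of 46 primary cilium genes. AAAGTT, a core that zinc fingers of the Myt1 family bind, was in 3 of the 29, Dnah1, Dnah7a and Rfx4 (10.3%, against 15.9% of all genes). The wider motile cilia genes held AAAGTT more often, in 25 of 96 (26.0%), and the primary cilium genes in 7 of 46 (15.2%). The median GC content was 53.5% in the promoters of the 29 genes and 52.7% in all promoters. A match describes letters only and does not show binding.

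Drc1 was one of 2 genes of the set that came below an unadjusted p of 0.05 in the comparison (8.33%, against 7.45% of all genes tested). Its half-site began at base -11 from the start site. This was not particular to Drc1, since half-sites of Pifo, Hydin and Tekt1 began at -12, -13 and -15. The 250 bases upstream of the RefSeq start of Drc1 (chr5:30281143-30281392, plus strand) are shown with its half-site in capitals.
Drc1: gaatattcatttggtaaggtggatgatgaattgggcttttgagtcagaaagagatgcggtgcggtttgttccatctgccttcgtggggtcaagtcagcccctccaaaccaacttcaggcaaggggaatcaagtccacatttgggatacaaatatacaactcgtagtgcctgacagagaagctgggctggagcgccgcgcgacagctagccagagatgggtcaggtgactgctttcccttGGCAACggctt

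The transcription factors of the programme were present in every cord and differed little between genotypes. Foxj1 (ENSMUSG00000034227, chromosome 11, 116330704 to 116335399, minus strand, GRCm38) was at 12.88, 10.37 and 11.23 TPM in Myt1-/- cords, against 10.36, 12.11 and 11.14 TPM in WT cords. The ranges lay over each other, with means of 11.5 ± 1.28 and 11.2 ± 0.877 TPM (SD, 3 samples each). The log2 difference of Foxj1, on the log2(TPM + 1) scale used for all differences here, was 0.03 with a 95% limma interval of -0.23 to 0.29. The defining marker of the set was thus present in all 6 samples.

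The RFX factors Rfx2, Rfx3 and Rfx4 also overlapped between groups. Rfx4, which is also made by radial glia, was the highest of the regulators at 18.03, 15.60 and 16.13 TPM in Myt1-/- cords, against 15.08, 16.57 and 13.72 TPM in WT cords. Rfx3 was at 8.37, 7.86 and 8.06 TPM in Myt1-/- cords, against 5.35, 8.18 and 7.53 TPM in WT cords. Its low WT value was that of WT replicate 1, the library that stood apart. Rfx2 was at 3.41, 3.34 and 3.27 TPM in Myt1-/- cords, against 2.46, 3.43 and 3.05 TPM in WT cords. The log2 differences were 0.13 (SE 0.10) for Rfx4, 0.20 (SE 0.15) for Rfx3 and 0.13 (SE 0.14) for Rfx2. All 4 tested factors, Foxj1 included, had a positive difference, with a median of 0.13, or of 0.04 without WT replicate 1, where 3 of the 4 were positive.

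Regulators of multiciliation were close to 0 in both genotypes. Mcidas, encoding multicilin, was at 0.08, 0.07 and 0 TPM in Myt1-/- cords, against 0.10, 0.04 and 0.14 TPM in WT cords. Ccno, encoding cyclin O, was at 0.05, 0.09 and 0.07 TPM in Myt1-/- cords, against 0.18, 0.20 and 0.38 TPM in WT cords. Every Ccno value of a Myt1-/- cord lay below every WT value, at levels where neither gene met the filter of 1 TPM on average. These genes neighbour each other on chromosome 13, with Ccno from 112987802 to 112990777 and Mcidas from 112993845 to 113000394 (GRCm38). Their partner Gmnc, which acts upstream of both, was at 2.02, 0.98 and 1.71 TPM in Myt1-/- cords, against 1.28, 1.22 and 1.17 TPM in WT cords. Deup1, a scaffold of centriole amplification, did not exceed 0.59 TPM in any sample, and Sntn, which encodes a protein of the ciliary tip, was listed at 0 in all 6.

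**Figure D1:**
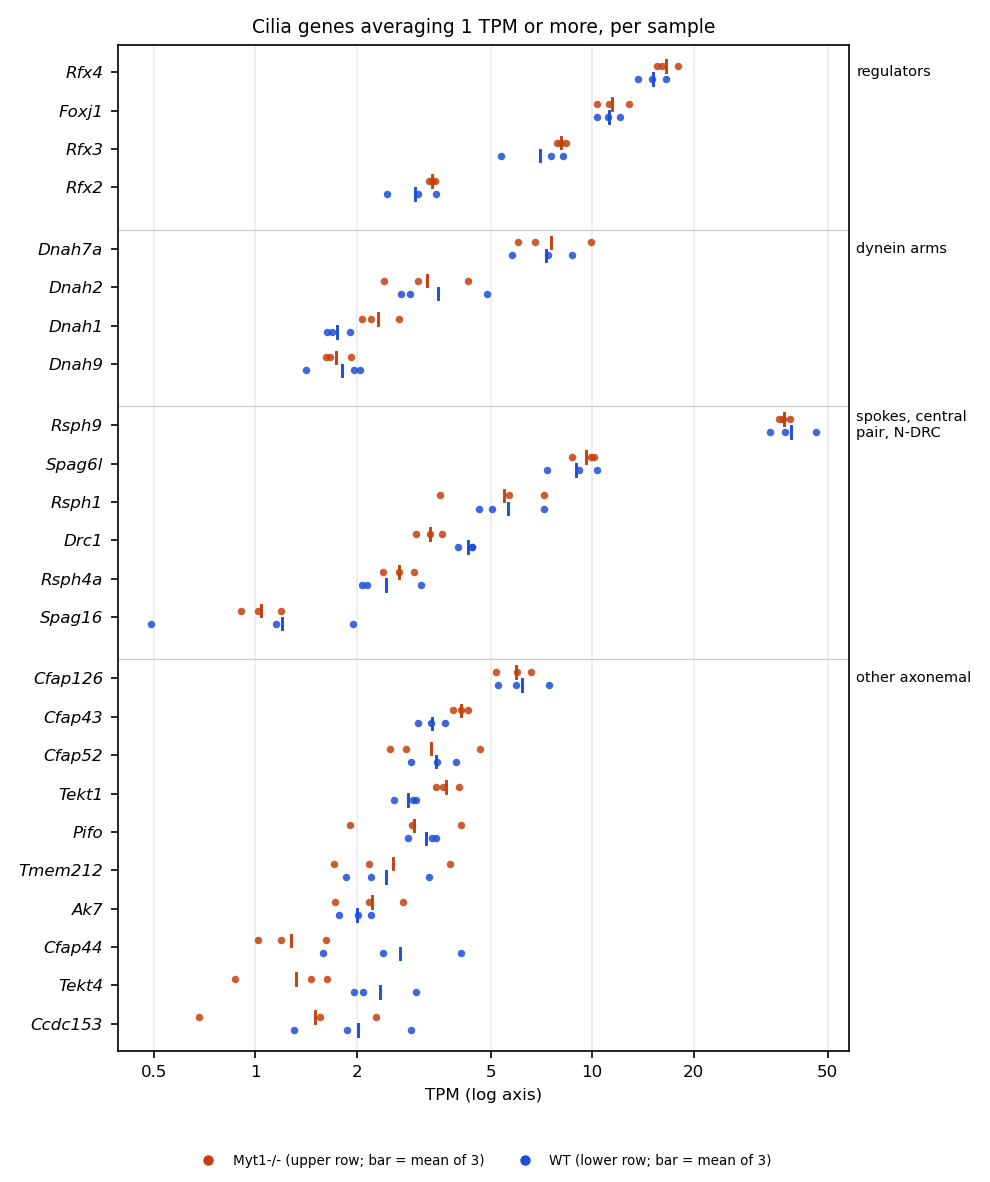
TPM per sample (log axis) of the 24 genes that averaged 1 TPM or more, grouped by role; each point is 1 sample, with Myt1-/- in the upper row and WT in the lower row of a gene and a bar at the mean of 3. Rsph9 stands to the right at 33.63 to 46.08 TPM, and the groups overlap for most genes.

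Dynein arm genes were low and mostly overlapped. Dnah7a, an inner arm heavy chain, was the highest at 6.76, 9.94 and 6.02 TPM in Myt1-/- cords, against 7.42, 5.77 and 8.74 TPM in WT cords. Its copies Dnah7b and Dnah7c averaged 2.55 and 0.24 TPM over the 6 samples and can share reads with it, so the split between the 3 is uncertain. Dnah1, another inner arm heavy chain, was at 2.21, 2.67 and 2.07 TPM in Myt1-/- cords, against 1.91, 1.63 and 1.69 TPM in WT cords. Every Myt1-/- value of Dnah1 lay above every WT value, with a log2 difference of 0.27 (SE 0.15, limma adjusted p = 0.717). Exons of an antisense gene, Gm35823, which averaged 0.668 TPM, cover 4.22% of its exonic bases.

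Dnah2, also of the inner arms, was at 2.41, 3.04 and 4.27 TPM in Myt1-/- cords, against 2.71, 4.88 and 2.88 TPM in WT cords. Exons of the antisense gene Dnah2os, which averaged 3.24 TPM, cover 2.08% of its exonic bases, and the sources used here do not say that reads were counted by strand. Dnah9, an outer arm heavy chain, was at 1.62, 1.93 and 1.67 TPM in Myt1-/- cords, against 1.97, 2.05 and 1.41 TPM in WT cords. Both genes overlapped between genotypes. The intermediate chains Dnai1 and Dnai2 had no row under these symbols, but RefSeq gives them as synonyms of Dnaic1 and Dnaic2, which had rows and are not counted in the set. Dnaic1 was at 2.60, 2.84 and 3.22 TPM in Myt1-/- cords, against 2.37, 2.69 and 2.27 TPM in WT cords, and Dnaic2 averaged 1.76 TPM in Myt1-/- cords and 1.72 TPM in WT cords.

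Among genes of the radial spokes and the central apparatus, Rsph9 was the most abundant of the whole set. This spoke head gene was at 35.85, 38.68 and 36.77 TPM in Myt1-/- cords, against 37.31, 46.08 and 33.63 TPM in WT cords. Its Myt1-/- values all lay within the WT range, and it differed by -0.06 (95% interval -0.33 to 0.21). The other spoke head genes were lower. Rsph1 was at 7.19, 5.66 and 3.53 TPM in Myt1-/- cords, against 4.63, 7.19 and 5.05 TPM in WT cords. Rsph4a was at 2.96, 2.68 and 2.40 TPM in Myt1-/- cords, against 2.08, 3.11 and 2.15 TPM in WT cords. Both overlapped between genotypes.

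Spag6l, a central pair gene that can share reads with its copy Spag6, was at 10.12, 9.91 and 8.70 TPM in Myt1-/- cords, against 7.36, 10.34 and 9.13 TPM in WT cords. Spag16, which encodes another protein of the central pair, was at 1.19, 1.02 and 0.91 TPM in Myt1-/- cords, against 1.95, 1.15 and 0.49 TPM in WT cords. Its WT samples enclosed the Myt1-/- ones on both sides. Drc1, a subunit of the nexin-dynein regulatory complex that links neighbouring microtubule doublets, was at 3.30, 3.59 and 2.99 TPM in Myt1-/- cords, against 4.39, 4.41 and 4.0 TPM in WT cords. Every Drc1 value of a Myt1-/- cord lay below every WT value, and its mean was 3.29 ± 0.30 TPM in Myt1-/- cords and 4.27 ± 0.231 TPM in WT cords (SD, 3 samples each), 1.30-fold lower. The log2 difference was -0.30 (SE 0.12, 95% interval -0.59 to -0.002, limma unadjusted p = 0.0486, adjusted p = 0.671). The gene (ENSMUSG00000073102) spans 30281388 to 30366695 on the plus strand of chromosome 5.

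The remaining axonemal and cilium-associated genes held differences of both signs. Tekt1 and Tekt4, both encoding tektins, filament proteins inside the microtubule doublets, lay in opposite directions. Tekt4 (ENSMUSG00000024175, chromosome 17, 25454615 to 25476602, plus strand) was at 1.63, 1.46 and 0.87 TPM in Myt1-/- cords, against 3.0, 1.96 and 2.09 TPM in WT cords. Tekt1 (ENSMUSG00000020799, chromosome 11, 72344722 to 72362442, minus strand) was at 4.02, 3.62 and 3.43 TPM in Myt1-/- cords, against 2.59, 3.01 and 2.94 TPM in WT cords. Neither gene overlapped between groups. Tekt4 was 1.78-fold lower by mean TPM, with a log2 difference of -0.53 (SE 0.21, limma unadjusted p = 0.0407, adjusted p = 0.669). Tekt1 was 1.30-fold higher, with a log2 difference of 0.29 (SE 0.13, unadjusted p = 0.0645 by limma, adjusted p = 0.671).

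Cfap43 and Cfap44, whose counterparts in Chlamydomonas and Tetrahymena act in 1 complex that tethers an inner dynein, also lay in opposite directions. Cfap43 was at 4.27, 3.87 and 4.09 TPM in Myt1-/- cords, against 3.33, 3.04 and 3.67 TPM in WT cords, with no overlap. Cfap44 was at 1.02, 1.19 and 1.62 TPM in Myt1-/- cords, against 2.40, 1.59 and 4.09 TPM in WT cords. Its groups overlapped by 1 sample on each side, and the WT values were spread widely. The log2 differences were 0.23 (SE 0.12, limma adjusted p = 0.712) for Cfap43 and -0.65 (SE 0.27, limma adjusted p = 0.671) for Cfap44.

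Genes often used to mark ependymal cells overlapped throughout. Tmem212, encoding a membrane protein of ependymal cells, was at 3.78, 1.71 and 2.18 TPM in Myt1-/- cords, against 1.86, 3.27 and 2.21 TPM in WT cords. Ccdc153, an axonemal gene that marks the same cells, was at 2.28, 1.56 and 0.68 TPM in Myt1-/- cords, against 2.89, 1.87 and 1.30 TPM in WT cords. Pifo, which acts in ciliary disassembly in the mouse, was at 2.91, 4.07 and 1.91 TPM in Myt1-/- cords, against 2.84, 3.35 and 3.44 TPM in WT cords. All 3 had their lowest value in a Myt1-/- cord, and Tmem212 and Pifo had their highest in one too. The log2 differences were 0.02 for Tmem212, -0.29 for Ccdc153 and -0.12 for Pifo. Their intervals were wide, with Ccdc153 at -1.03 to 0.45. Cfap126, which positions basal bodies, averaged 5.92 TPM in Myt1-/- cords and 6.21 TPM in WT cords. Cfap52, a protein of the microtubule lumen, averaged 3.32 TPM in Myt1-/- cords and 3.44 TPM in WT cords, and Ak7, an adenylate kinase of cilia, 2.22 TPM in Myt1-/- cords and 2.0 TPM in WT cords.

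The genes under the filter were given no test. They were Mcidas and Ccno above, the dynein heavy chains Dnah5, Dnah6 and Dnah11, and the central pair genes Spef2, Hydin and Spag17. Spef2, just under the filter with a mean of 0.942 TPM, was at 1.06, 1.28 and 0.92 TPM in Myt1-/- cords, against 0.81, 0.74 and 0.84 TPM in WT cords, with no overlap. Spag16, just over it, had a mean of 1.12 TPM. Hydin, a giant protein of the central pair, was at 0.36, 0.32 and 0.35 TPM in Myt1-/- cords, against 0.38, 0.39 and 0.66 TPM in WT cords, also without overlap. The share of all genes without overlap was not taken below the filter, so these separations have no background to be set against. Spag17 did not exceed 0.24 TPM, and 9.66% of its exonic bases are covered by exons of Wdr3 on the other strand. Dnah5 and Dnah11, both of the outer arms, averaged 0.543 and 0.777 TPM in Myt1-/- cords, against 0.467 and 0.82 TPM in WT cords, and Dnah6 averaged 0.99 TPM in Myt1-/- cords and 0.887 TPM in WT cords.

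**Figure D2:**
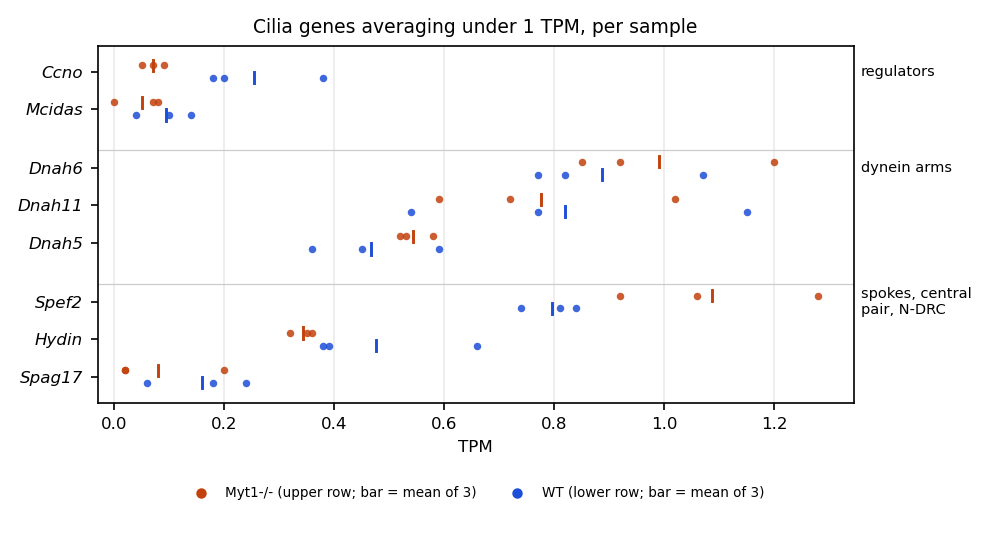
TPM per sample of the 8 genes that averaged under 1 TPM, with Myt1-/- in the upper row and WT in the lower row of each gene and a bar at the mean of 3. Ccno and Hydin lie lower and Spef2 higher in all Myt1-/- samples; Mcidas and Spag17 do not exceed 0.24 TPM.

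Over the 24 tested genes no difference passed the test. None reached a limma adjusted p under 0.05 over all 15962 genes tested, of which 0% did so, and the smallest adjusted p in the set was 0.669. At an unadjusted p under 0.05 there were 2, Drc1 and Tekt4, both lower in Myt1-/- cords, which is 8.33% against 7.45% of all genes tested. In all genes tested, 3.13% were lower and 4.32% higher at that p. Myt1-/- and WT samples were fully apart for 5 of the 24 (14.3% of all genes tested): Tekt1, Dnah1 and Cfap43 above (8.91% of all) and Drc1 and Tekt4 below (5.38% of all). With no trend in the variance prior, 6 of the 24 were at an unadjusted p under 0.05, against 6.95% of all genes tested, and again none passed when adjusted. Of the log2 differences 12 were positive and 12 negative, from -0.65 for Cfap44 to 0.29 for Tekt1, and 17 lay within 0.2 of 0. The median was -0.003, beside 0.025 for all genes tested.

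The precision differed from gene to gene. The 95% interval reached 0.23 to either side for Rfx4 and 0.74 for Ccdc153. A difference up to that size in these genes would not have been separated from 0 even before adjustment. The adjusted test asked for more: the oligodendrocyte marker Mobp, with a log2 difference of -2.96, had a limma adjusted p of 0.14. The median SD within groups on the log2 scale was 0.184 over the 24 genes, 0.135 over all genes tested and 0.216 over the 5892 tested genes that averaged under 10 TPM. Drc1 kept its direction without any 1 library but came to an unadjusted p of 0.0536 to 0.129, and Tekt4 to 0.105 without Myt1-/- replicate 3 and 0.109 without WT replicate 1. No gene of the set was below 0.05 without Myt1-/- replicates 2 or 3 or without WT replicates 1 or 3. Of all genes tested, 4.5%, 4.53%, 7.89% and 9.48% were below it in these fits, in that order.

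**Figure D3:**
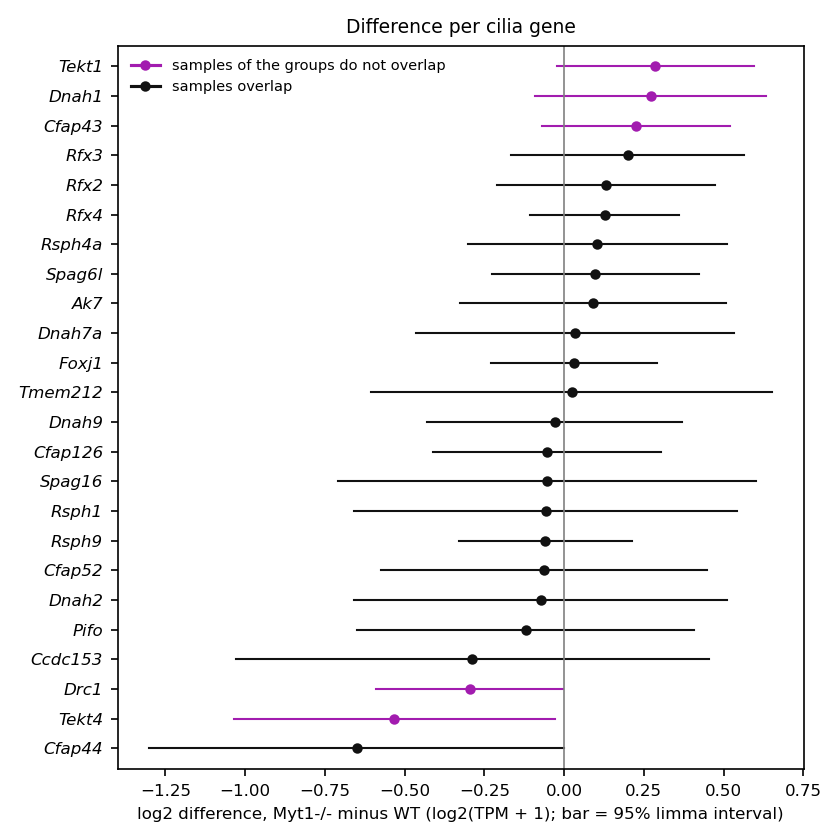
Log2 difference, Myt1-/- minus WT, on the log2(TPM + 1) scale for each of the 24 tested genes, with 95% limma intervals; purple marks genes whose samples do not overlap between groups. The intervals of Drc1 and Tekt4 end just below 0, and those of the other 22 genes include 0.

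The summed level of the 32 genes was 150.2, 148.4 and 140.4 TPM in Myt1-/- cords, against 137.9, 162.0 and 140.2 TPM in WT cords. The Myt1-/- sums lay inside the WT range. The 5 highest genes, Rsph9, Rfx4, Foxj1, Spag6l and Rfx3, made up 56.0% of the sum. Set against each gene's own mean over the 6 libraries, the median of the 24 genes was highest in WT replicate 2, at 0.11, and lowest in WT replicate 1, at -0.09. It was 0.08, 0.04 and -0.05 in the Myt1-/- cords and -0.06 in WT replicate 3. WT replicate 2 held the highest value of 8 genes and WT replicate 1 the lowest value of 6. The 3 Myt1-/- medians all lay inside the WT range.

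Motile cilia genes outside the set also gave no difference that passed the test. Of 121 such genes, all with a row, 80 averaged 1 TPM or more. None passed an adjusted p of 0.05, 3 were higher and 0 lower at an unadjusted p under 0.05 (3.75%, against 7.45% of all genes tested), and the median log2 difference was 0.07. The 3 were Cfap100, Enkur and Mns1. Cfap100, an axonemal protein, was at 12.96, 19.50 and 13.05 TPM in Myt1-/- cords, against 9.18, 12.58 and 7.70 TPM in WT cords. Enkur, a protein of the microtubule lumen, was at 5.44, 4.03 and 4.71 TPM in Myt1-/- cords, against 3.32, 3.8 and 1.99 TPM in WT cords. Mns1, which is needed for outer arm docking, was at 4.19, 4.47 and 4.96 TPM in Myt1-/- cords, against 2.33, 3.33 and 3.92 TPM in WT cords. All 3 had no overlap between groups, and their log2 differences were 0.58, 0.53 and 0.42. Over the 80 genes, every Myt1-/- sample lay above every WT sample for 7 and below for 3 (8.91% and 5.38% of all genes tested). Without WT replicate 1 none of the 80 was higher at that p and 3 were lower. Of all 15962 genes tested, 512 were higher and 748 lower at that p without this library.

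By role, dynein arm, docking and assembly genes of the wider list had 17 of 21 positive differences (57.5% of all genes tested were positive) and a median of 0.09. Without WT replicate 1 it was 14 of 21 (48.7% of all) and a median of 0.05. Spoke, central pair and regulatory complex genes had 7 of 16 positive and a median of -0.06. Regulators and genes of centriole amplification had 4 of 9 positive and a median of -0.004, and other axonemal genes 19 of 34 and a median of 0.08. E2f5, a partner of multicilin, was at 15.25, 15.54 and 14.44 TPM in Myt1-/- cords, against 13.30, 13.59 and 12.90 TPM in WT cords, with a limma adjusted p of 0.671.

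Genes of the primary cilium, which is not specific to ependymal cells, were mostly slightly higher in Myt1-/- cords. Of 52 tested, 43 had a positive difference (82.7%, against 57.5% of all genes tested), with a median of 0.07. Without WT replicate 1 there were 33 (63.5%, against 48.7% of all genes tested), with a median of 0.02. At an unadjusted p under 0.05 there were 3 higher and 0 lower (5.77%, against 7.45% of all genes tested), and none passed when adjusted. Ift43, a subunit of the retrograde transport complex, was at 25.77, 24.12 and 22.31 TPM in Myt1-/- cords, against 15.37, 17.27 and 19.98 TPM in WT cords. Its log2 difference was 0.44 (SE 0.11, limma adjusted p = 0.669). Ift74, of the anterograde complex, and Arl6, a small GTPase that recruits the BBSome, were 1.17-fold and 1.13-fold higher. In WT replicate 1 the median deviation was -0.15 for these genes, -0.15 for the wider motile cilia genes and -0.07 for all genes tested.

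**Figure D4:**
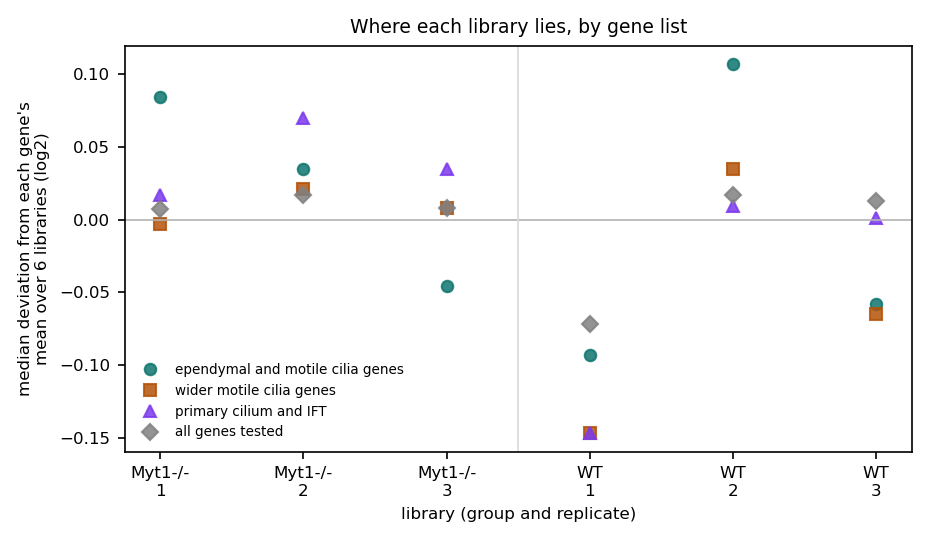
Median deviation (log2) from each gene's mean over 6 libraries, per library, for the 24 tested genes of the set, 80 wider motile cilia genes, 52 genes of the primary cilium and all genes tested. WT replicate 1 is lowest in all 4, and WT replicate 2 is highest for the genes of the set, at 0.11.

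Markers of ependymal cells that are not ciliary went both ways. Of 9 tested, 2 were below an unadjusted p of 0.05, both lower (3.13% of all genes tested were), and 1 was without WT replicate 1. Fam107a, an actin-associated protein of glia, was at 10.12, 7.50 and 7.42 TPM in Myt1-/- cords, against 14.75, 12.54 and 12.72 TPM in WT cords, with a log2 difference of -0.63 (SE 0.14, limma adjusted p = 0.617). S100b, a calcium-binding protein of ependymal cells, astrocytes and oligodendrocytes, was at 26.13, 18.65 and 16.76 TPM in Myt1-/- cords, against 34.45, 28.39 and 28.13 TPM in WT cords. Neither overlapped, and both are also made by astrocytes. Of 7 astrocyte markers 2 were lower at that p, or 1 without WT replicate 1, with a median log2 difference of -0.15. Aqp4 is on both the astrocyte and the ependymal list. All 7 differences were negative, and 1 was positive without WT replicate 1 (57.5% and 48.7% of all genes tested were positive). The part of astrocytes in the values of Fam107a and S100b was not tested. Cd24a was 1.17-fold higher, Prom1 1.09-fold higher and Mia 1.27-fold lower, and the samples of each overlapped between groups. Of the 9 ependymal differences 4 were positive and 5 negative, with a median of -0.04. Oligodendrocyte markers, 8 of 8 lower at an unadjusted p under 0.05, summed to 105, 87.4 and 86.1 TPM in Myt1-/- cords, against 716, 493 and 290 TPM in WT cords. In tissue RNA, fewer cells of a type and less RNA per cell cannot be told apart.

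Markers of cells beside the central canal gave few differences. Pkd2l1, a channel of neurons that contact the cerebrospinal fluid, was at 4.88, 3.98 and 4.42 TPM in Myt1-/- cords, against 4.44, 5.17 and 3.90 TPM in WT cords. Of the floor plate, where Foxj1 is also expressed in the embryo, 1 of 5 tested markers was below an unadjusted p of 0.05, as were 7.45% of all genes tested. This was Foxa2, at 0.71, 0.94 and 0.76 TPM in Myt1-/- cords, against 1.33, 1.32 and 2.12 TPM in WT cords. Shh and Spon1 overlapped between groups. Of the roof plate 1 of 4 was, Rspo1, a secreted enhancer of Wnt signalling, at 2.93, 1.89 and 3.0 TPM in Myt1-/- cords, against 1.39, 1.74 and 1.64 TPM in WT cords. Without WT replicate 1 the floor plate count was again 1 and that of the roof plate 0. Fabp7, a lipid-binding protein of radial glia, was 1.16-fold higher (limma adjusted p = 0.457) and was the 1 of 9 radial glia markers at an unadjusted p under 0.05.

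The choroid plexus, another ciliated epithelium, was barely represented. Its 8 markers summed to 17.1, 18.8 and 17.5 TPM in Myt1-/- cords, against 18.8, 16.0 and 33.9 TPM in WT cords, and its factor Otx2 was listed at 0 in all 6 samples. Of 7 tested, 1 was lower at an unadjusted p under 0.05, as were 3.13% of all genes tested. This was Aqp1, a water channel, at 7.51, 8.25 and 3.62 TPM in Myt1-/- cords, against 11.96, 7.81 and 15.32 TPM in WT cords, with overlap. Without WT replicate 1, 0 of the 7 were lower at that p, against 748 of all 15962 genes tested. Markers of tissue around the cord also varied. Sensory ganglion markers summed to 154, 158 and 59.1 TPM in Myt1-/- cords, against 224, 120 and 284 TPM in WT cords. Skeletal muscle markers summed to 12.6, 15.9 and 182 TPM in Myt1-/- cords, against 11.4, 16.3 and 79.6 TPM in WT cords. Markers of meninges and fibroblasts summed to 935, 984 and 947 TPM in Myt1-/- cords, against 494, 1130 and 1480 TPM in WT cords. The lowest sum of the last was in WT replicate 1, in which the cilia lists were also lowest, and its part in those levels was not tested.

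**Figure D5:**
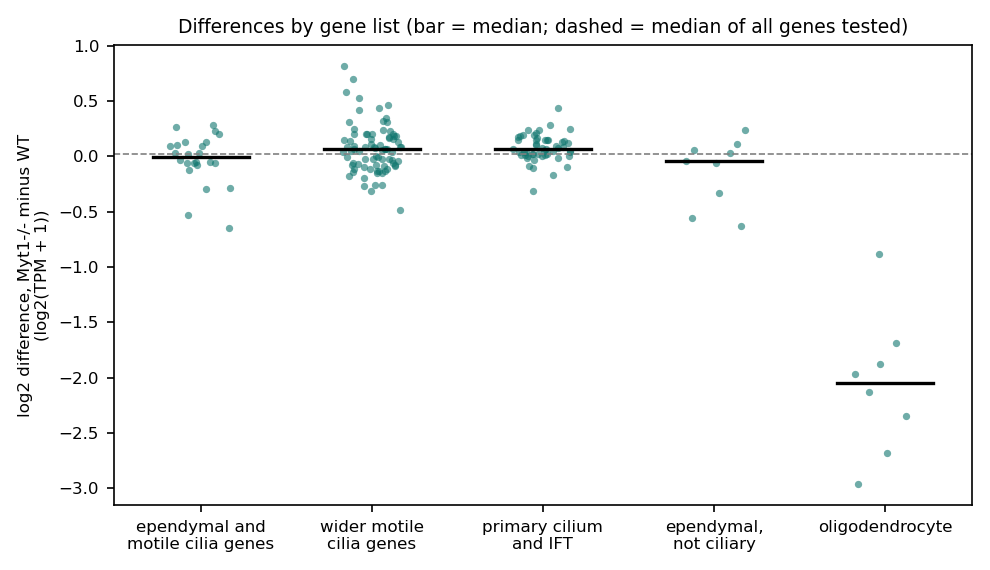
Log2 difference, Myt1-/- minus WT, of each tested gene in 5 lists, with a bar at the list median and a dashed line at the median of all genes tested (0.025). The cilia lists centre near the line, at -0.003, 0.07 and 0.07, while the oligodendrocyte markers centre at -2.05.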

How the data were processed

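The authors deposited 1 table of TPM for 55487 genes, with 2 decimals and 1 column per sample; the unit was read from the values, since each column sums to 993139 to 994687. RSEM, DESeq2 and the build GRCm38.p6 are named in the submitters' processing notes, without roles; no source used here names the aligner, annotation release, filters or strand setting. Another 1 column of per-sample values matched no label and was not used. Positions are those of GENCODE M21 (GRCm38), where 55141 gene IDs were found.

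Limma 3.58.1 in R 4.3.3 was fitted to log2(TPM + 1) with a trend in the variance prior, over the 15962 genes that averaged 1 TPM or more, with genotype as the only term. P-values are two-sided and Benjamini-Hochberg adjusted over all genes tested; log2 differences on this scale understate the change of low genes. Fold values are ratios of mean TPM. The fit was tested on simulated data. The members and the gene lists were chosen with earlier results of these data known. Named were every member, Myt1 and, of each other list, up to 4 genes with the smallest p and, of cell type markers, the most abundant ones; Gmnc, Deup1, Sntn, Otx2, Prom1 and the copies of Dnah7a were named after their values were seen. The result of 1 marker list is not reported here.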

Additional observations from a re-analysis of the deposited data

How the results depend on the processing

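No gene of the set passed an adjusted p of 0.05 in limma under any of 14 alternatives. Over all genes, 1 passed with a pseudocount of 0.1 and 0 to 7 with 1 library left out, 7 being without WT replicate 2. The count of the set's genes at an unadjusted p under 0.05 was 2 in the fit reported, 6 of 24 without a trend in the variance prior (Dnah1, Drc1, Cfap43, Cfap44, Tekt1 and Tekt4, against 6.95% of all genes) and 0 to 2 with 1 library left out. It was 2 or 3 under the other pseudocount, filters and scalings, where Cfap44 joined Drc1 and Tekt4, except with no filter, where Ccno stood in place of Drc1. Of all genes tested, 7.45% were at that p in the fit reported and 4.5% to 9.48% with 1 library left out. Under the other pseudocount, filters and scalings it was 5.64% to 8.17%. The median difference of the set lay between -0.036 and 0.091 with 1 library left out, the highest being without WT replicate 2. Rescaling to nuclear protein-coding genes was chosen after seeing the data. The replicate numbers do not show paired samples: same-numbered libraries had correlations of 0.031, -0.07 and 0.061 between their deviations from the group means. With replicate number as a block, 2 genes of the set were at an unadjusted p under 0.05 (Cfap44 and Tekt4), against 7.14% of all genes tested. The median of the set was then -0.003, and 0 genes passed when adjusted. The table gives no depth, so counting error could not be separated from other spread.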
